A study of Homo sapiens with 4 samples.

Results

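Metallothioneins are small cysteine-rich proteins that bind zinc, copper and cadmium and buffer the free zinc of the cell. Their transcription is driven mainly by MTF1, a zinc finger factor that is activated when free zinc rises and binds metal response elements in promoters. SLC30A1 encodes the zinc exporter ZnT1 of the plasma membrane and is itself a target of MTF1, so the zinc sensor, the buffer and the outlet form a feedback circuit.

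The genes described are MT1E, MT1F, MT1G, MT1H, MT1M, MT1X, MT2A, SLC30A1 and MTF1, 9 of the 19775 genes with a symbol of their own on the array. They were chosen by name, with earlier results of these data known. Every probe set annotated to these symbols was taken, 17 in all, and none of them carried a second symbol. RNA came from U937, an established human line, labelled a lymphoma line, with features of monocyte precursors. There were 4 Affymetrix U133 Plus 2.0 arrays, each the only one of its group. The groups were an untreated control, Sonazoid only (dose 0.05%), ultrasound only (intensity 0.3 W/cm2, lasting 1 min) and a combination of both at these doses. Sonazoid is a contrast agent of gas-filled microbubbles. Treated cells were kept for 3 h at culture temperature before RNA was taken, and the labels do not say whether the control had the same wait.

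No test between groups was made. Each group holds 1 array, so each difference below is between single arrays with no replicate check, and a model that adds the effects of Sonazoid and ultrasound would have 1 residual degree of freedom. Ultrasound only against control and the combination against Sonazoid only share no array, so they measured the ultrasound difference on separate pairs of arrays. The other comparisons share arrays with these and are given beside them. Signals are the authors' probe set intensities after scaling of each array, and values under 23.8 (the median of all signals, the floor) were treated as not measured. Of the U937 myeloid markers, 8 of the 9 on the array lay above the floor on all 4 arrays, and MPO did not. Among the 8, ELANE, PRTN3, AZU1, CTSG and LYZ were bright, while SPI1 (59.3 to 120) and CSF1R (32.7 to 93.1) were dim. The summed signal of the myeloid markers ranged from 29421 to 36831, and that of T cell, B cell, erythroid, epithelial or fibroblast markers was at most 179 on any array.

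SLC30A1 had the largest ultrasound differences of the members. It was higher on both arrays with ultrasound, while MTF1, the sensor, differed by less than 1.5-fold on each of its 3 probe sets after scaling. All 9 measured metallothionein probe sets were slightly higher with ultrasound in both pairs after scaling and slightly lower with Sonazoid only than in control.

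MTF1 is known to bind the metal response element, so the promoters of the circuit were searched for it. Its core was searched as TGCACNC and TGCGCNC on both strands, in the 250 bases before each transcription start in RefSeq (GRCh38.p14), forms that cannot match the same bases on 1 strand. Entries were found for 5 of the 9 members; MT1E, MT1F, MT1G and MT1M had none. Matches are in capitals, and SLC30A1 is set beside MT2A and MT1X to compare the exporter with buffer genes. SLC30A1 is at chr1:211579162-211579411 on the minus strand, MT2A at chr16:56608334-56608583 and MT1X at chr16:56682220-56682469, both on the plus strand.
SLC30A1: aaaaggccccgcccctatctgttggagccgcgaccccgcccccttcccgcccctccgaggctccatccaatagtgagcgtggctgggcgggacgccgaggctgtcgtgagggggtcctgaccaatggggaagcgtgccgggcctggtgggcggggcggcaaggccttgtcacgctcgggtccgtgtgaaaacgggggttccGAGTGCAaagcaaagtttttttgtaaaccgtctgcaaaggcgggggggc
MT2A: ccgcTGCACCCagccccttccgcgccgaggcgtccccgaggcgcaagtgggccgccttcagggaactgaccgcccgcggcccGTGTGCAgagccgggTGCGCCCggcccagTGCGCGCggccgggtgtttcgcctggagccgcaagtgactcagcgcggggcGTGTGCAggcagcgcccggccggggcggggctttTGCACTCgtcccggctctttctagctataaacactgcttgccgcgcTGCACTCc
MT1X: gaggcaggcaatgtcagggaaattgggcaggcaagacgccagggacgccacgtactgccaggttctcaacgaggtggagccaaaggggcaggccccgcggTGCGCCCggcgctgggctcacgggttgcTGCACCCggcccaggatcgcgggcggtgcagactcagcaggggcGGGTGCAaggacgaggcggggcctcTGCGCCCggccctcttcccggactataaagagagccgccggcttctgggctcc

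MT2A held 7 matches in this window, MT1H 8, MT1X 4, SLC30A1 1 and MTF1 0. Of all 35116 promoters in the table, 24.8% held at least 1 match, 0.370% at least 4, 0.0313% at least 7 and 0.0171% at least 8. The SLC30A1 match lies 49 to 43 bases before the start, and another lies 25 to 31 bases after it. Over the longer window that ends 50 bases after the start, SLC30A1 thus held 2 matches, and 8.60% of all promoters held at least 2. These windows were rich in G and C, from 66.4% in SLC30A1 to 73.2% in MT2A, against a median of 58% over all promoters. A match is a run of letters and was not measured as a binding site.

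**Figure D1:**
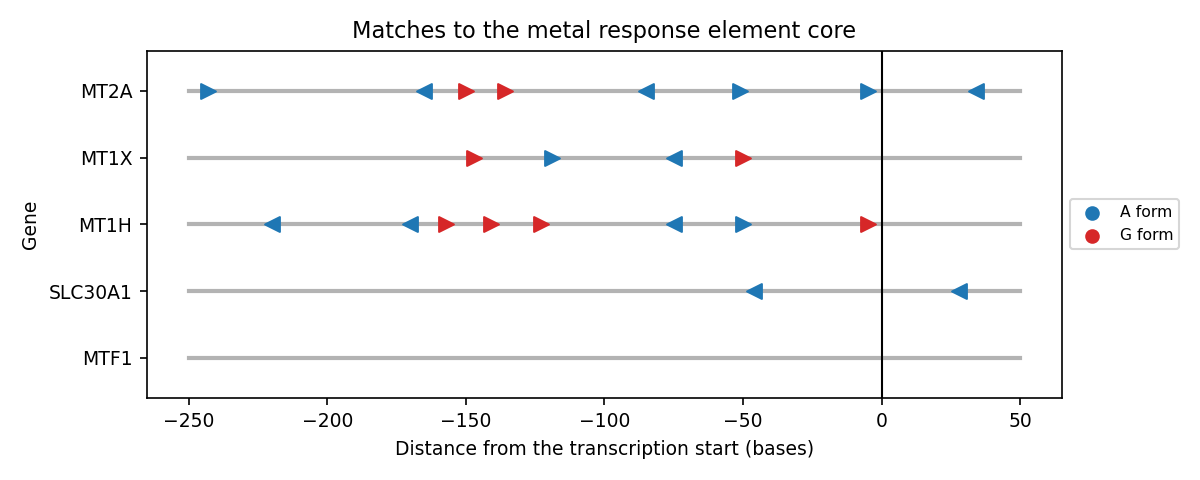
Positions of matches to the metal response element core around the transcription start of the 5 members with a promoter entry (x axis, distance in bases; arrowheads point along the strand of the match, blue for the form TGCACNC and red for TGCGCNC). MT1H and MT2A carry 8 matches each over the whole window, MT1X 4, SLC30A1 2 and MTF1 0.

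SLC30A1, which moves zinc out of the cytosol, was measured by 2 of its 3 probe sets. The brighter one, 212907_at, had a signal of 1411 (control), 1462 (Sonazoid only), 2163 (ultrasound only) and 2419 (combination). The other, 228181_at, stood at 201, 265, 409 and 436 in the same order. By both probe sets the 2 arrays with ultrasound lay above the 2 without. MTF1 by 227150_at and by 205322_s_at had this order too, and the share of all probe sets with it was not counted. The remaining SLC30A1 probe set, 242716_at, was between 1.37 and 6.91, below the floor on every array, and gives no level.

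In ultrasound only against control, SLC30A1 was higher by 1.53-fold on 212907_at and by 2.03-fold on 228181_at. The combination was 1.65-fold above Sonazoid only by each of them. These were the 2 of 14 measured member probe sets, both of 1 gene, that stood at least 1.5-fold higher in both pairs. Of all probe sets 1.75% did, and 0.748% of the 4280 probe sets with a mean signal over 1000 (this limit was chosen after the values were seen). The members were chosen with earlier results of these data known, so these shares are only a description. Without scaling 212907_at fell short of 1.5-fold in ultrasound only against control, at log2 0.58, and 228181_at was the 1 member past it in that pair. The mean of both ultrasound differences of 212907_at was 0.67 on the log2 scale, and 28 of those 4280 probe sets had a larger one. The central 90% of them ran from log2 -0.31 to 0.30 in ultrasound only against control and from -0.25 to 0.25 in the combination against Sonazoid only. For probe sets with a mean signal of 100 to 500, the class of 228181_at, the central 90% ran from -0.52 to 0.56 and from -0.48 to 0.50, so both SLC30A1 probe sets lay above the range of their class in both pairs.

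Added Sonazoid made a smaller and less even difference to SLC30A1. Without ultrasound, the level with Sonazoid was 1.04-fold that of control by 212907_at and 1.32-fold by 228181_at, both inside the range of their signal class. In cells given ultrasound, the combination was 1.12-fold above ultrasound only by 212907_at and 1.07-fold by 228181_at, again inside the range. Against control the combination was 1.71-fold and 2.17-fold higher. The difference of the ultrasound effect with and without Sonazoid was 0.11 by 212907_at and -0.30 by 228181_at on the log2 scale, so the probe sets gave opposite signs. The size of the Sonazoid differences depended on the scaling of the arrays. With the values as deposited, Sonazoid only against control stood at log2 0.14 by 212907_at and 0.49 by 228181_at. The combination against ultrasound only then stood at log2 0.38 and 0.31, and the ranges were not recomputed there.

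**Figure D2:**
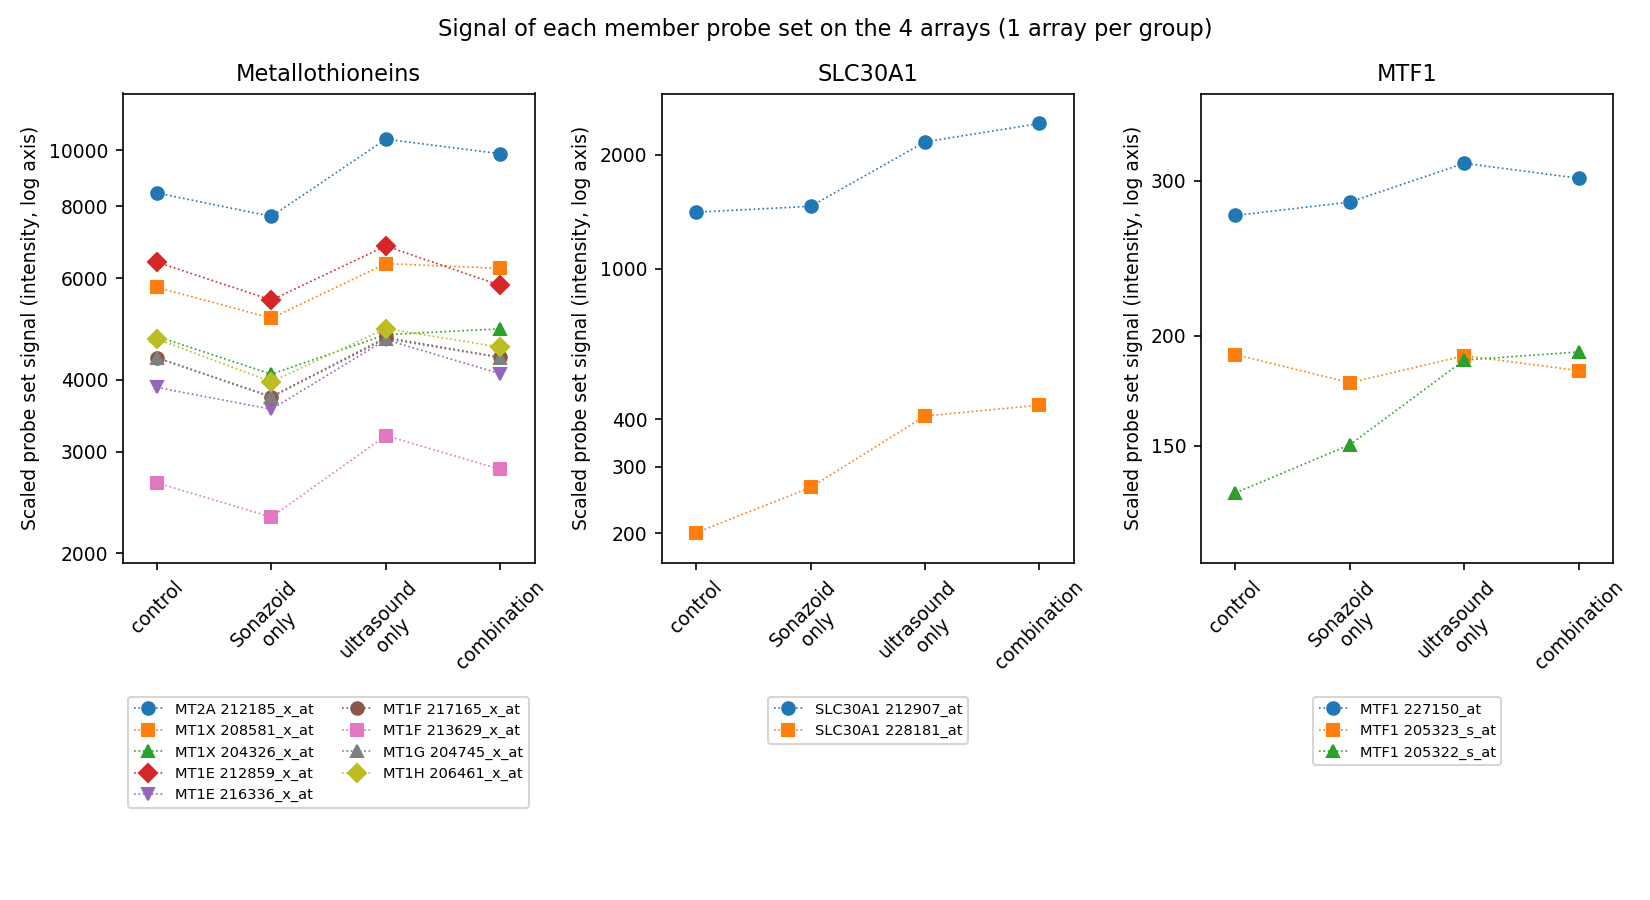
Scaled signal (log axis) of the 14 member probe sets above the floor on the 4 arrays, 1 array per group; dotted lines only join the points of a probe set. Both SLC30A1 probe sets are highest on the 2 arrays with ultrasound, and every metallothionein probe set is lowest with Sonazoid only.

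MT2A, the metallothionein usually most abundant in human cells, had a signal of 8428 (control), 7675 (Sonazoid only), 10448 (ultrasound only) and 9858 (combination). Its fold difference was 1.24 in ultrasound only against control and 1.28 in the combination against Sonazoid only. Both arrays with ultrasound lay above both without. MT1X and MT1F by each of their sets, MT1G, and MT1E by 216336_x_at shared this order. MT1H and MT1E by 212859_x_at did not. For MT1F by 217165_x_at and for MT1G the order was nearly a tie, at log2 0.002 in the combination against control. Under quantile normalisation these sets and MT1X by 204326_x_at lost it. Among 1285 probe sets with a mean signal in the range of the metallothioneins (2739 to 9102), the central 90% ran from log2 -0.25 to 0.28 in the first pair and from -0.18 to 0.24 in the second. MT2A, at 0.31 and 0.36, was the 1 member metallothionein above this range in both pairs after scaling. In the first pair MT2A was at 0.27 as deposited and 0.24 under quantile normalisation, and the range was not recomputed there. Of the 4280 probe sets with signals over 1000, 100 had a larger mean ultrasound difference. MT2A did not reach a 1.5-fold difference in any comparison.

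MT1X belongs to the cluster on chromosome 16 that holds all the metallothionein genes described here. Its probe set 208581_x_at had 5782 (control), 5113 (Sonazoid only), 6357 (ultrasound only) and 6237 (combination). The second, 204326_x_at, had 4753, 4089, 4788 and 4899. The log2 differences were 0.14 and 0.01 in ultrasound only against control, and 0.29 and 0.26 in the combination against Sonazoid only. In the first pair 204326_x_at turned to log2 -0.03 with the values as deposited and under quantile normalisation, so both MT1X probe sets kept their direction under these settings in the second pair and not in the first.

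The MT1E probe set 212859_x_at had 6396 (control), 5496 (Sonazoid only), 6822 (ultrasound only) and 5827 (combination). MT1E by 216336_x_at had 3878, 3554, 4692 and 4096. Against ultrasound only the combination stood at log2 -0.23 and -0.20 after scaling, and at -0.01 and 0.02 with the values as deposited. By 212859_x_at the combination was below control (log2 -0.13), but slightly above it (0.04) with the values as deposited.

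For MT1F, 217165_x_at had 4368 (control), 3738 (Sonazoid only), 4733 (ultrasound only) and 4375 (combination), and 213629_x_at had 2649, 2311, 3199 and 2795. MT1G by 204745_x_at had 4361, 3728, 4709 and 4367. MT1H had 4705, 3966, 4906 and 4553. The log2 differences of MT1F by 217165_x_at and of MT1G differed by no more than 0.0050 in any of the 5 comparisons, so these 2 probe sets gave nearly the same profile under different gene names.

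All 9 metallothionein probe sets above the floor have the suffix _x_at, which the manufacturer gives to sets with probes that also match other sequences, and the coding sequences of the MT1 and MT2 genes are close to each other. The remaining 2 metallothionein probe sets have no such suffix and were below the floor on all 4 arrays. These were 210472_at of MT1G, between 16.7 and 22.3, and 217546_at of MT1M, at most 15.7. MT1M therefore has no measured level here, and the signal under MT1G came from an _x_at set alone. The 9 probe sets are not independent measurements, and how much of each signal came from its named gene was not tested. MT1HL1, a related gene fixed in the list of other metallothioneins and also measured by an _x_at set, had 6252, 4704, 7895 and 6766 in control, Sonazoid only, ultrasound only and the combination, the same order of arrays as MT2A.

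As a group the 9 probe sets had a median log2 difference of 0.12 in ultrasound only against control (range 0.01 to 0.31) and of 0.23 in the combination against Sonazoid only (0.08 to 0.36). All 9 were above 0 in both pairs, except that MT1X by 204326_x_at was below 0 in the first pair without scaling and under quantile normalisation. The median over all measured probe sets was 0.0043 and 0.0012. Of the 1285 probe sets of like brightness 56.7% were above 0 in the first pair and 62.3% in the second. ACTB, a control gene of high signal, was likewise higher with ultrasound within each pair, at 20403 (control), 18718 (Sonazoid only), 22436 (ultrasound only) and 19421 (combination). GAPDH had 15126, 13577, 16187 and 14039. Centred on probe sets of like brightness, an alternative added after the values were seen, the metallothionein medians were 0.088 and 0.19.

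With Sonazoid only the family was lower. The 9 log2 differences from control lay between -0.25 (MT1H) and -0.13 (MT1E by 216336_x_at), with a median of -0.22, where the median of all measured probe sets was -0.0014 and that of the 1285 of like brightness -0.024. Of the 9, which are not independent, 5 were below the central 90% of the latter, which ended at -0.20, and 59.8% of the latter were below 0. The control genes ACTB and GAPDH were lower as well, at log2 -0.12 and -0.16. Without scaling the metallothionein median was -0.13. In cells given ultrasound, the combination had a median of -0.11 against ultrasound only, with 8 of 9 below 0, and the sign turned without scaling, to a median of 0.11. Against control the combination had a median of 0.04, with 7 above 0 and 2 below, and 0.22 without scaling. These comparisons share arrays with each other and with the ultrasound pairs, so the low values of the Sonazoid only array enter both the Sonazoid difference and the second ultrasound pair.

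**Figure D3:**
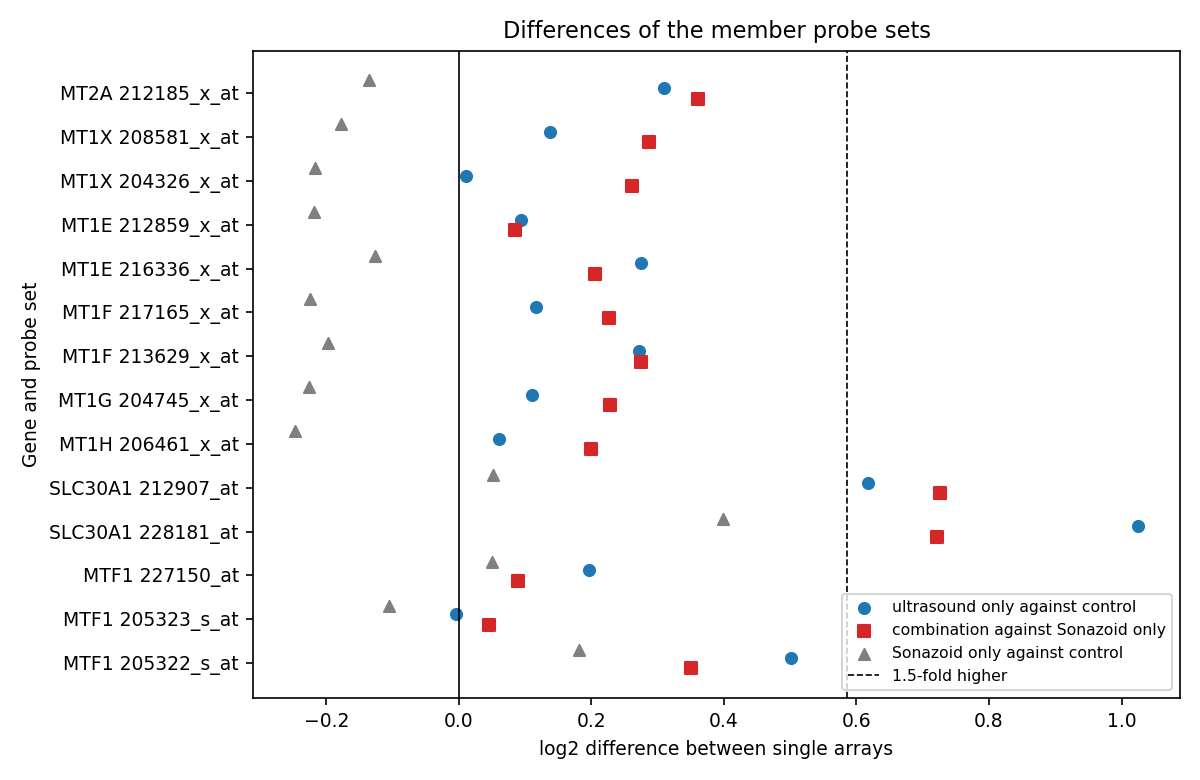
Log2 differences (x axis) of the 14 measured member probe sets (y axis) in ultrasound only against control (circles), the combination against Sonazoid only (squares) and Sonazoid only against control (triangles); each point compares single arrays. Only the SLC30A1 probe sets pass the dashed line at 1.5-fold, and the triangles of all 9 metallothionein probe sets lie below 0.

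MTF1, the zinc-sensing activator of these genes, is itself regulated mostly through its protein. Its brightest probe set, 227150_at, had 274 (control), 284 (Sonazoid only), 314 (ultrasound only) and 302 (combination). By 205323_s_at it had 190 (control), 177 (Sonazoid only), 190 (ultrasound only) and 183 (combination). In ultrasound only against control these sets gave MTF1 folds of 1.15 and 0.997. The dimmest, 205322_s_at, had 133, 150, 188 and 192, a fold of 1.41 in the first ultrasound pair and 1.27 in the second. The dimmest thus differed more than the other MTF1 sets, and each lay inside the central 90% of its signal class in all 5 comparisons. In the combination against control 205322_s_at was near the upper end of that range, at log2 0.531 against 0.534. Without scaling 205322_s_at passed 1.5-fold in the combination against control, at log2 0.71.

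Counted together, 14 of the 17 member probe sets were measured. In ultrasound only against control 2 were higher and 0 lower past 1.5-fold (background 13.5% of probe sets either way), and 1 passed 2-fold (background 2.88%). The combination against Sonazoid only had 2 past 1.5-fold (background 12.1%) and 0 past 2-fold (2.5%). The combination against control had 2 members higher past 1.5-fold (12.4%), of which 1 passed 2-fold (2.52%). With Sonazoid only against control 0 passed 1.5-fold (9.88%) or 2-fold (1.72%), and in the combination against ultrasound only 0 passed 1.5-fold (13%) or 2-fold (2.6%). In each ultrasound pair and in the combination against control, 2 of 14 members passed 1.5-fold, a share near the 1.5-fold background there. Both counted probe sets belong to SLC30A1. These backgrounds cover all measured signals, and bright probe sets passed less often. With a signal over 1000, 45 of 4281 were higher and 22 lower past 1.5-fold in ultrasound only against control. In the combination against Sonazoid only 38 of 4284 were higher and 10 lower. SLC30A1 by 212907_at and all measured metallothionein probe sets are this bright.

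No other zinc transporter measured was past 1.5-fold in both pairs. Of the other 9 genes of the SLC30 family, listed here as exporters, 7 were measured in each pair. None passed 1.5-fold in the first pair and 1, SLC30A3, did in the second, at least 1.63-fold higher from below the floor to 38.9. Among genes by their brightest probe set, the background at 1.5-fold was 10.8% in the first pair and 10.2% in the second. The exporter medians were 0.07 and -0.08 on the log2 scale. SLC30A9 had log2 0.50 in the first pair and -0.08 in the second, its signal being 496 in control and 700 to 791 on all 3 treated arrays. SLC30A6, of the secretory pathway, had log2 differences of -0.07 and -0.30, and the dim SLC30A8, which went from above to below the floor, had bounds of -0.17 and -0.19.

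The importers of the SLC39 family bring zinc into the cytosol. Of 14, 12 were measured in the first pair and 11 in the second, and 0 passed 1.5-fold in either, with medians of -0.06 and -0.05. SLC39A1 had log2 differences of -0.14 and -0.30, SLC39A14, a zinc and iron importer, -0.41 and 0.04, and SLC39A3 0.05 and -0.41. SLC39A10, which MTF1 is known to repress, had -0.05 and -0.10 with signals between 918 and 997; it was named after its values were seen.

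**Figure D4:**
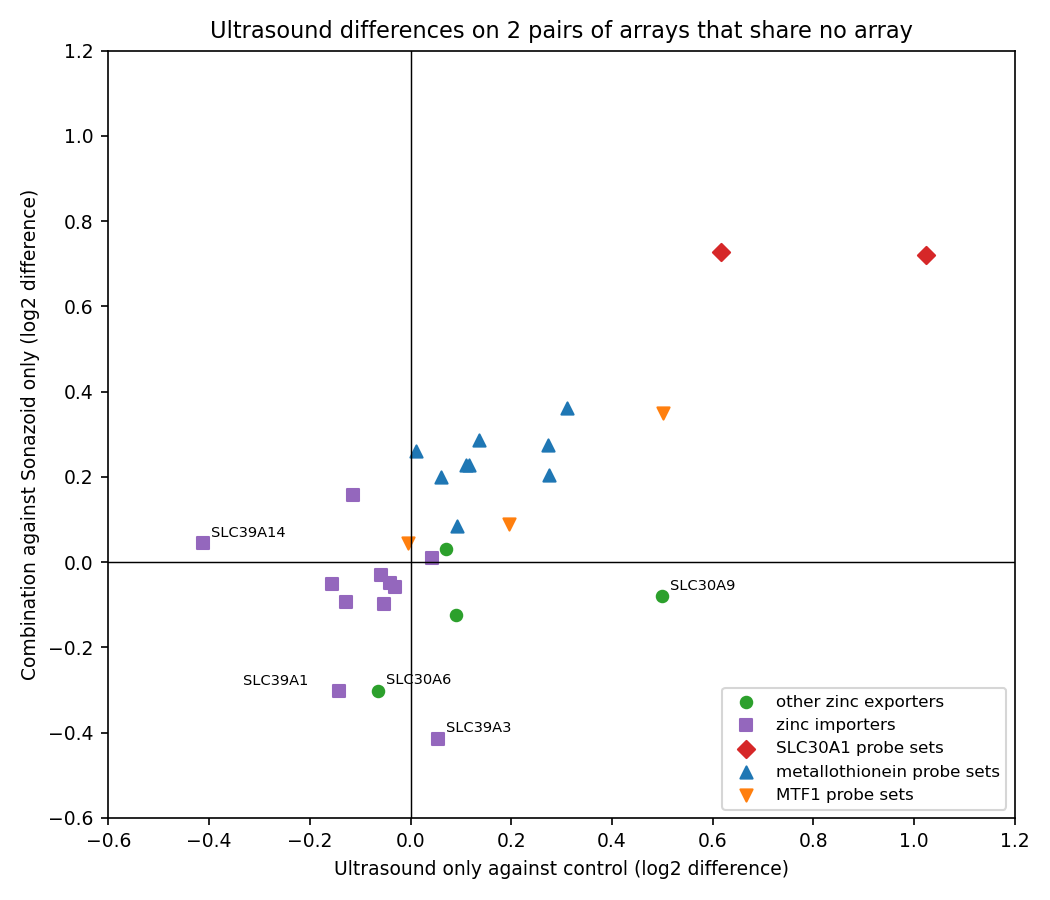
Log2 difference of ultrasound only against control (x axis) and of the combination against Sonazoid only (y axis), pairs of arrays that share none, for the member probe sets and for SLC30 and SLC39 zinc transporter genes above the floor on all 4 arrays. The SLC30A1 probe sets lie highest on both axes, at 0.62 and 0.73 and at 1.02 and 0.72.

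Of the other metallothioneins listed, 3 were on the array under a symbol of their own and 2 were measured in each pair. MT1A, MT1B and MT1L were among those without such a probe set. None passed 1.5-fold in the first pair and 1, MT3, was lower past it in the second (10.8% and 10.2% of all genes). The list medians were log2 0.07 and -0.08. MT1HL1 was higher in both pairs (log2 0.34 and 0.52). MT3, known mainly from the brain, was dim, at 49.1 in control, 38.1 with Sonazoid only and 42.7 with ultrasound only. It was below the floor in the combination. Its log2 difference was -0.20 in the first pair, with a bound of -0.68 in the second. MT4, of squamous epithelium, was below the floor on all arrays.

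Of 5 transcription factors and cofactors that work with MTF1 or at metallothionein promoters, 4 were measured. USF2, which binds E-boxes and was measured by an _x_at set, had log2 1.15 in the first pair and -0.23 in the second, its signal being 675 with ultrasound only and 305 to 422 on the other arrays. SP1 was slightly lower in both pairs (log2 -0.27 and -0.22). EP300, a coactivator, had -0.24 and 0.45. The list medians were -0.12 and -0.07.

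Of 8 genes that respond to zinc or cadmium alongside metallothioneins, all measured, 2 passed 1.5-fold in each pair, where 10.8% and 10.2% of all genes did, and the list medians were 0.32 and 0.26. These were HSPA6, a heat shock protein (log2 3.00 and 3.85), and HMOX1 (1.60 and 1.94). HMOX1, which degrades heme, had 758 (control), 663 (Sonazoid only), 2306 (ultrasound only) and 2550 (combination), higher on both ultrasound arrays as SLC30A1 was. DNAJB1, an HSP70 co-chaperone, had log2 differences of 0.51 and 0.53. These genes also answer heat, oxidants and other stresses.

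By a fixed rule, the genes with a profile most like that of SLC30A1 were sought among 10627 other genes above the floor on all arrays, by the Euclidean distance between log2 differences from control on the 3 treated arrays. PTX3, a secreted pattern recognition protein, was nearest at 0.025, followed by the tubulin TUBA1A (0.083), MAP3K2-DT (0.085), TSPAN2 (0.092) and DLX2 (0.10). In all 62 genes lay within 0.25. Each gene entered by its brightest probe set alone, so these neighbours are those of 212907_at. That set had log2 differences from control of 0.05 (Sonazoid only), 0.62 (ultrasound only) and 0.78 (combination). The other measured SLC30A1 set, 228181_at, had 0.40, 1.02 and 1.12, and its neighbours were not sought. The flatter profiles were far more common, with 708 genes within 0.25 of MT2A and 2306 within 0.25 of MTF1. Nearest to MT2A were MEI1 (0.023), SNHG17 (0.031), MACO1 (0.043), FDX2 (0.047) and PCF11 (0.048), and nearest to MTF1 were GRAPL (0.012), NDUFB3, CLTA, NIT2 and EXD2 (the last at 0.025).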

How the data were processed

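The authors deposited a linear intensity for each probe set on each of 4 arrays. Neither the labels nor the file name the method that summarised probes. Trimmed means (2% removed at each end) differed 1.16-fold between arrays, over the limit of 1.1-fold, so arrays were multiplied by 1.04 (control), 0.977 (Sonazoid only), 1.07 (ultrasound only) and 0.923 (combination). Signals under the floor of 23.8 were raised to it before log2, and where 1 of the compared arrays was under it, the size is given as "at least". Of 54675 probe sets, 62 controls were left out of backgrounds. Symbols came from the platform annotation, updated through RefSeq (GRCh38.p14). A gene's main probe set was its brightest. Differences and counts at 2-fold were checked on simulated data (Python 3.11.15, pandas 2.3.3, numpy 2.4.6). That check did not cover the 1.5-fold limit or the noise of these arrays. Named were all members, the 3 genes of each list farthest from 0 in the mean ultrasound difference, and the 5 of nearest profile. SOD1, SLC30A3, MT4, SLC39A10, FKBP5, ZBTB16, SLC39A11 and SLC7A11 were named beyond this rule. Members and lists were chosen with earlier results of these data known. Alternatives were no scaling, quantile normalisation, other floors, a pseudocount of 16, averaged probe sets and, added after the values were seen, centring on probe sets of like brightness.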

Additional observations from a re-analysis of the deposited data

Results flagged for a closer look

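The members and the 3 genes named from each list were searched. Several genes beside the members had an effect in opposite directions in the 2 pairs of arrays for the same treatment, each of at least 0.1 on the log2 scale; with 1 array per group none of these differences was tested. USF2 went from log2 1.15 with ultrasound in the absence of Sonazoid to -0.23 in its presence, a difference of -1.38. EP300 went the other way, from -0.24 to 0.45, a difference of 0.68. For USF2 and EP300 the Sonazoid effect also turned, from 0.47 to -0.91 and from -0.47 to 0.21.

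The Sonazoid effect turned between cells without and with ultrasound for ATP7A, the copper pump of the secretory pathway (0.35 and -0.77, a difference of -1.12), HSPA6 (-0.73 and 0.11, 0.85), SLC39A14 (-0.11 and 0.34, 0.46), HMOX1 (-0.19 and 0.15, 0.34) and SLC30A6 (0.11 and -0.13, -0.24). ATP7A was dim, between 33.2 and 77.4. No member probe set met this rule after scaling. Of the list genes outside that search, ZBTB16 also turned, with ultrasound differences of 0.43 and -0.35 at signals of 41.9 to 59.1. So did the ultrasound difference of SLC39A11 (-0.11 and 0.16) and the Sonazoid difference of SLC7A11 (-0.12 and 0.12). With the values as deposited, the Sonazoid difference met the rule for some metallothionein probe sets. These were MT1X by 204326_x_at (-0.13 and 0.25), MT1F by 217165_x_at (-0.13 and 0.10), MT1G by 204745_x_at (-0.13 and 0.11) and MT1H (-0.15 and 0.11).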

How the results depend on the processing

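SLC30A1 by its brighter probe set ranged from log2 0.58 to 0.63 in ultrasound only against control and from 0.72 to 0.81 in the combination against Sonazoid only over the scalings, floors and pseudocount tried. With its 2 measured probe sets averaged it was 0.82 in ultrasound only against control and 0.95 in the combination against control. With the values as deposited, the combination against control gave 0.95 for SLC30A1, 0.31 for MTF1 and 0.22 for the metallothionein median, and the metallothionein median of the combination against ultrasound only turned to 0.11; the combination array is the brightest without scaling. Members past 1.5-fold in ultrasound only against control then numbered 1, since SLC30A1 by 212907_at fell just short, and in the combination against control 3, with MTF1 by 205322_s_at. With the lower floor or the pseudocount, 1 member each passed 1.5-fold in Sonazoid only against control and in the combination against ultrasound only, and 3 did in each ultrasound pair; the added one was MT1M by 217546_at, which lies below the floor of 23.8 on all arrays.

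The count of all probe sets at 2-fold depends on the floor. For ultrasound only against control it was 864, and 85 with the higher floor, 9120 with the lower floor and 2225 with the pseudocount. For the combination against Sonazoid only it was 749, and 71, 8782 and 2050; for the combination against control 757, and 76, 8704 and 2036; for Sonazoid only against control 510, and 2, 8189 and 1739; for the combination against ultrasound only 789, and 17, 9213 and 2226. Of 42 member differences (14 probe sets in both ultrasound pairs and in the combination against control), the signs of 4 turned with the values as deposited and of 3 under quantile normalisation. In the combination against ultrasound only 9 of 14 turned as deposited, 7 of them metallothionein probe sets, and 0 of 14 in Sonazoid only against control. With 1 array per group no replicate could be left out, and the labels carry no replicate numbers that could pair arrays.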

Other observations

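Copper, which metallothioneins also bind, has its own carriers. Of 9 such genes 8 were measured and 1 passed 1.5-fold in each pair (10.8% and 10.2% of all genes), with medians of log2 0.13 in ultrasound only against control and 0.07 in the combination against Sonazoid only. SLC31A2, a copper transporter of vesicles, had 160 (control), 162 (Sonazoid only), 225 (ultrasound only) and 252 (combination), 1.41-fold and 1.55-fold higher in the 2 pairs. ATP7B, a copper exporter, had log2 differences of -0.57 and -0.54, with signals of 88.6, 81.3, 59.8 and 55.9. The fold difference of ATP7A was 2.33 in the first pair and 1.07 in the second. SOD1, the copper-zinc superoxide dismutase, had -0.02 and 0.03.

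Glucocorticoids are inducers of metallothionein genes. Of 6 glucocorticoid-inducible genes, all measured, 3 passed 1.5-fold in each pair, where 10.8% and 10.2% of all genes did, with medians of 0.77 and 0.86. These were TSC22D3 (log2 2.74 and 2.69), DUSP1 (1.87 and 2.01) and the kinase SGK1 (1.12 and 1.28), which also respond to other stimuli. FKBP5, a co-chaperone of the glucocorticoid receptor and also on this list, had -0.09 and -0.08, with signals between 2955 and 3261. It was named after its values were seen, and the cause of the differences in this list was not tested.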
